A study of Mus musculus with 48 samples.

Results

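The 10 genes described here mark the basal, or myoepithelial, layer of the mammary gland, and they were followed in 48 RNA libraries: the keratins Krt5, Krt14 and Krt17, the transcription factor gene Trp63, the oxytocin receptor gene Oxtr, and the contractile genes Acta2, Myh11, Cnn1, Tagln and Mylk. They are 10 of the 55487 genes in the deposited matrix, were taken by their symbols, and each symbol occurs once. All 10 are among the 20209 genes tested, genes that reached 1 TPM in 3 or more libraries. TPM, the authors' unit, is a transcript level corrected for gene length and scaled to the same total in every library. All 10 genes reached 1 TPM in each of the 48 libraries.

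RNA came from thoracic (second) mammary glands of mice with a doxycycline-dependent activator driven by the MMTV promoter (MMTV-rtTA) and a tet-operator responder. The responder was Esr1, the estrogen receptor alpha gene (MMTV-rtTA/tet-op-Esr1), or CYP19A1, the aromatase gene (MMTV-rtTA/tet-op-CYP19A1). Each model gave 8 groups of 3 libraries: uninduced at 12, 18 and 24 months of age, induced for 1 week at 12 and at 18 months, induced for 6 or 12 months and sampled at 24 months, and induced for 18 months and sampled at 30 months. All 16 groups carry the activator and a responder. A group without transgenes, one given the inducer without a responder, and an uninduced group at 30 months are not among those analysed here, so effects of the inducer and of the transgene cannot be told apart. The MMTV promoter is active mainly in the luminal mammary epithelium, and in some other epithelia and blood cells, so the transgene is not directed to the basal layer as such. Titles use the term biological replicate, but no label ties a library to its own mouse, so each p-value is measured against library-to-library spread, which may be technical.

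The mammary epithelium has an inner luminal layer, which makes milk, and an outer basal layer, which lies on the basement membrane. Mature basal cells are called myoepithelial because they hold smooth muscle actin and myosin and squeeze the alveoli and ducts. Oxytocin from the pituitary binds its receptor on these cells, calcium rises, myosin light chain kinase is activated, and milk is ejected. Krt5 and Krt14 encode the paired keratins of basal cells, and p63, the product of Trp63, is required for the basal state. Vessel walls also express the contractile genes, and skin also expresses the keratins and Trp63.

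Positions are given on mouse build mm10, from GENCODE M21. Krt14 (ENSMUSG00000045545.8, chr11:100203162-100207548) and Krt17 (ENSMUSG00000035557.9, chr11:100256217-100261029) lie near each other on the minus strand, and Krt5 (ENSMUSG00000061527.7) is at chr15:101707070-101712898, minus strand. Trp63 (ENSMUSG00000022510.14) is at chr16:25683763-25892102, plus strand, and Oxtr (ENSMUSG00000049112.9) is at chr6:112473683-112489943, minus strand. Acta2 (ENSMUSG00000035783.9) is at chr19:34241090-34255590, minus strand. Myh11 (ENSMUSG00000018830.10, chr16:14194535-14291372, minus strand) and Mylk (ENSMUSG00000022836.11, chr16:34745210-35002420, plus strand) share a chromosome with Trp63. Cnn1 (ENSMUSG00000001349.5, chr9:22099216-22109630, plus strand) and Tagln (ENSMUSG00000032085.5, chr9:45929619-45936058, minus strand) are both on chromosome 9.

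Windows of 250 bases upstream of a transcription start were read from RefSeq (GRCm38.p6) for Krt5, Krt14, Oxtr, Acta2, Cnn1 and Mylk, and searched on both strands. Motif matches of the kinds bound by known regulators of this layer are shown for Krt5 and Acta2, with the matched bases in capitals: a p53 family half-site, the kind bound by p63, and the CArG box, bound by serum response factor, with up to 1 other base among its 6 central ones.
Krt5, chr15:101712981-101713010, minus strand: gctgccccccAGGCATGCCCagcccactaa
Acta2, chr19:34255438-34255467, minus strand: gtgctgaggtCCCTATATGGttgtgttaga
Acta2, chr19:34255388-34255417, minus strand: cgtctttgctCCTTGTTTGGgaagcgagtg
The first base of the Krt5 match is 95 bases before the RefSeq start. The Acta2 matches begin 84 and 34 bases before it, and both lie inside the GENCODE gene span, which begins farther upstream. Of all 32851 RefSeq windows of this length, 7.13% hold the half-site, 8.59% the CArG box with up to 1 other base, 1.47% the strict CArG box and 6.75% the AP-1 motif TGANTCA. Krt14, Oxtr and Cnn1 held none of these motifs in their windows, though the Krt14 window is not at its main start. Mylk, read at a start inside its gene span, held 1 AP-1 match, 64 bases before that start, and none of the other motifs. These matches describe sequence only, since no binding was measured.

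Levels can be compared between genes because TPM accounts for length. Acta2 was the most abundant, with a median of 115 TPM over the 48 libraries (24.7 to 281), followed by Tagln with a median of 79.5 TPM (17.5 to 166). Myh11 had a median of 36.5 TPM, Mylk 29.3, Oxtr 23.4, Krt14 17.8, Cnn1 16.3, Krt5 12.1, Krt17 6.78 and Trp63 6.05. The highest library exceeded the lowest by 7.97-fold for Myh11 and by 19.4-fold for Cnn1, with the other genes in between. Differences between the 16 groups held 34.1% (Mylk) to 57.2% (Cnn1) of each gene's variance on the log2 scale. The median over all tested genes was 45.3%, and the rest of the variance lay between libraries of a group. With only 3 libraries in each of 16 groups, such a share is sizeable even where no group differs. It was not corrected for this.

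**Figure D1:**
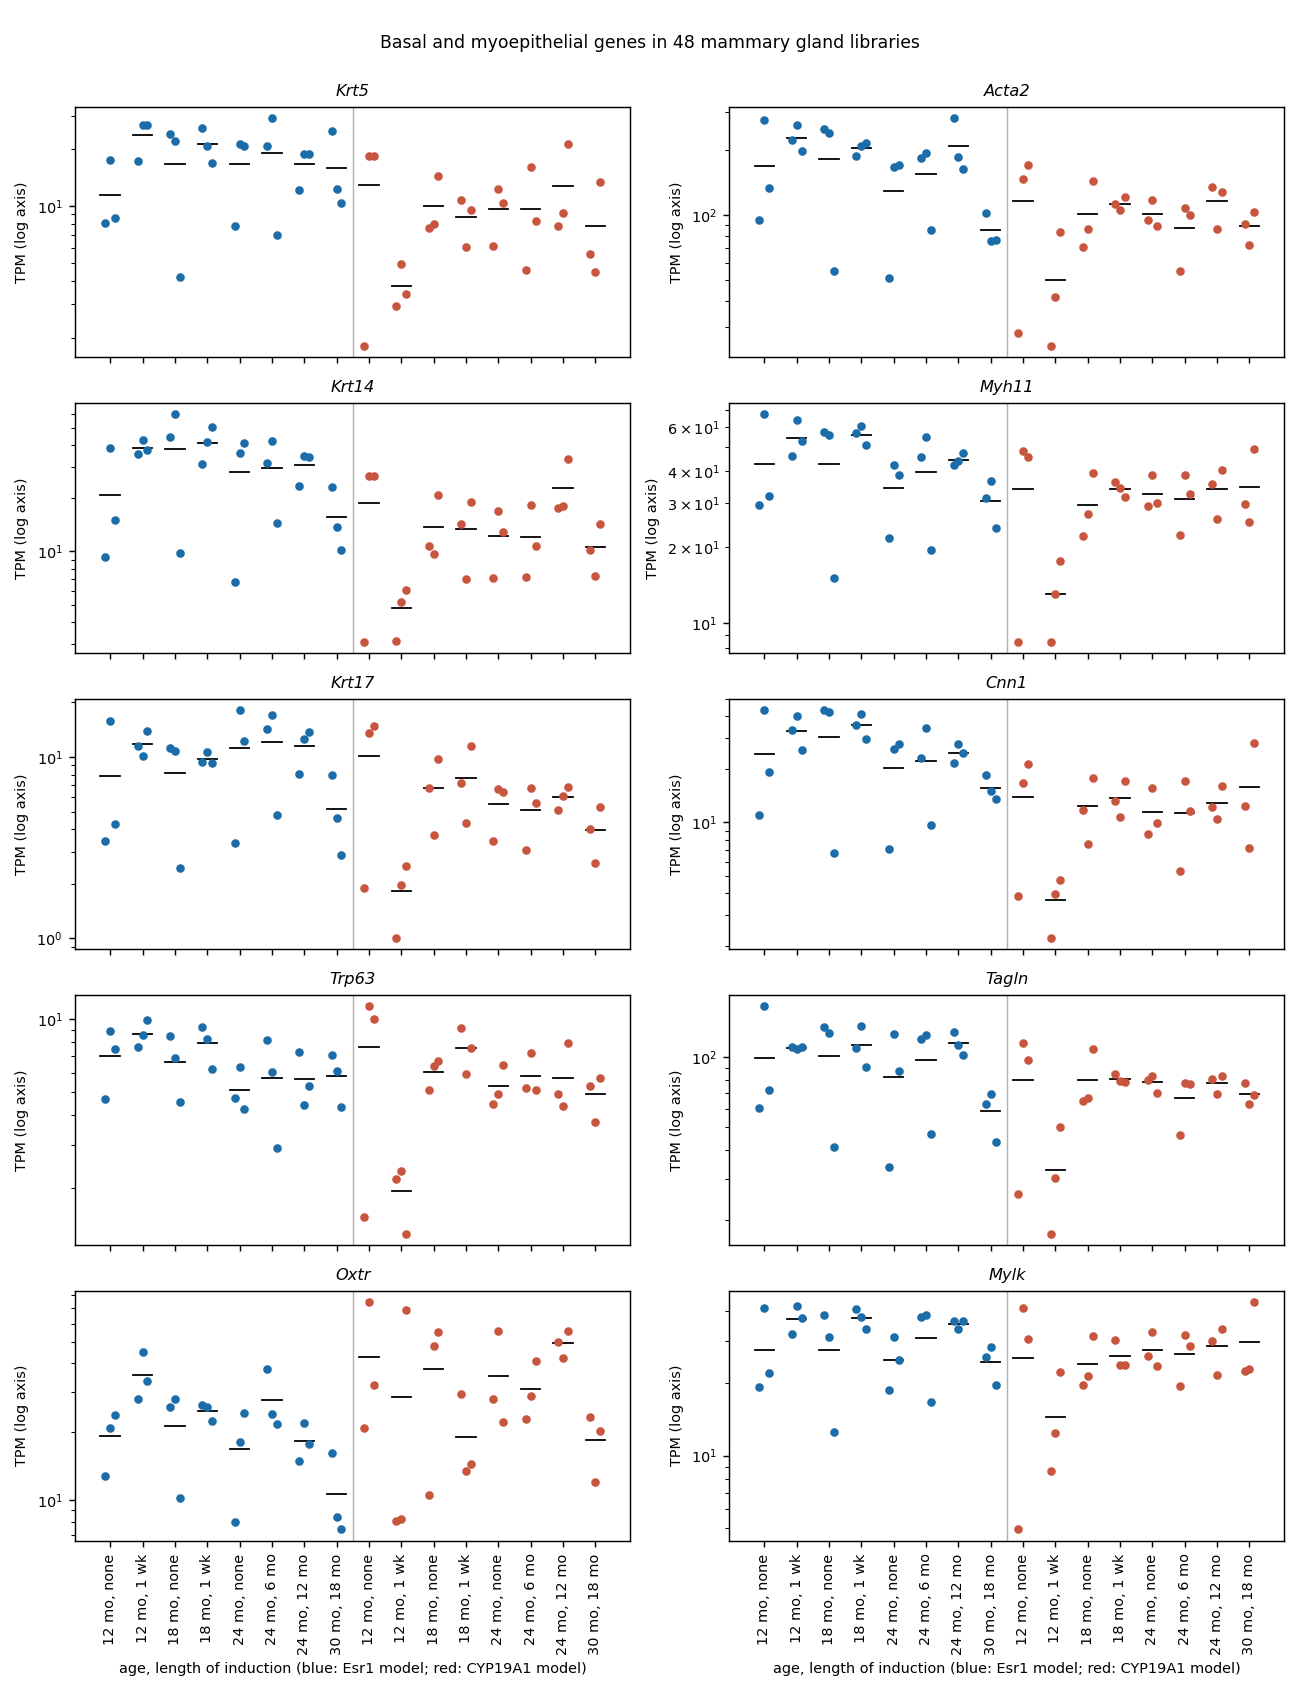
TPM (log axis) of each gene in the 48 libraries. Each point is a library, the short line is the mean of the 3 libraries of a group, and groups are ordered by age and length of induction, with the Esr1 model in blue and the CYP19A1 model in red. In the CYP19A1 glands induced for 1 week at 12 months, 9 of the 10 genes have their lowest group mean, and Oxtr is the exception.

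The libraries were uneven in ways that bear on these levels. Reads on ribosomal RNA and ribosomal RNA-like genes took a median of 0.0752% of TPM but over 10% in 9 libraries. The share was 67.2% in uninduced 12-month CYP19A1 replicate 1 and 36.7% to 49.8% in the 3 CYP19A1 libraries induced for 1 week at 12 months. Skeletal muscle genes (10 genes, none at 0 in a whole group) summed to between 167 and 42322 TPM, the highest in uninduced 18-month Esr1 replicate 3. Mural cell genes of vessels (10 genes, all detected in every group) summed to between 50.4 and 257 TPM. Luminal genes (12 genes, all detected) summed to between 90.3 and 957 TPM, and salivary gland genes (8 genes) to between 22.9 and 154 TPM. In each group 1 to 3 of the salivary genes Dcpp1, Dcpp2, Bpifa2 and Smgc were at 0, which ones varied, and none was at 0 in all 48 libraries. Skin genes (9 of 10 listed genes in the matrix, with Krt1, Lor, Krt77 and Ivl at 0 in the CYP19A1 glands induced for 1 week at 12 months) summed to 2.72 to 27.9 TPM in 47 libraries and to 114 TPM in CYP19A1 24-month replicate 3 of the 12-month induction. As these are bulk samples, fewer cells of a type and less RNA per cell cannot be told apart.

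None of the 10 genes passed the test in any of 18 comparisons (limma on log2(TPM + 1), Benjamini-Hochberg adjusted p under 0.05 over all genes within a comparison). The values therefore describe levels and intervals, not established changes. Where groups of 3 libraries are said not to overlap, the share of all genes doing so was not counted. The 18 comparisons set each induced group against uninduced glands of its model and age, older against younger glands, and the models against each other.

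**Figure D2:**
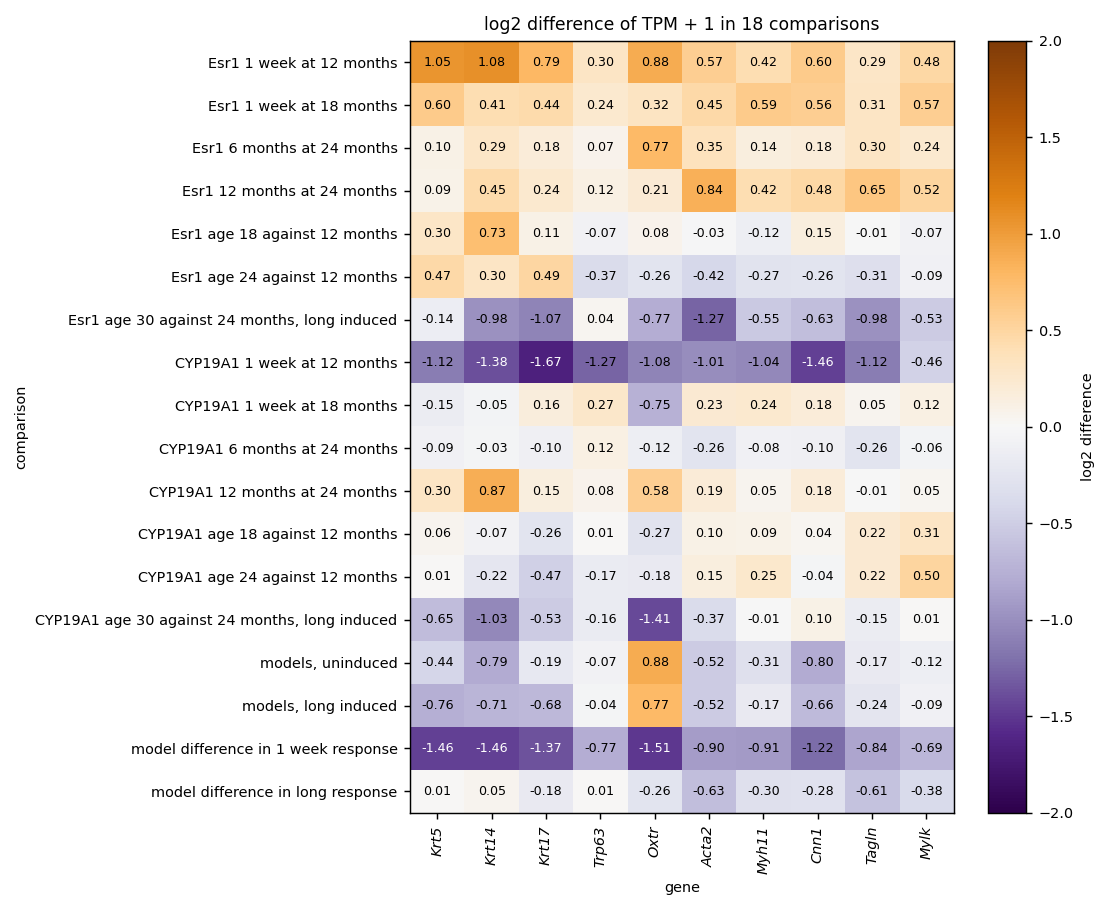
Log2 difference of TPM + 1 for each gene (columns) in the 18 comparisons (lines), with the value printed and the colour scale from -2 to 2. The comparisons named for models, and the differences in response, are CYP19A1 minus Esr1. All 10 genes are below 0 after 1 week in CYP19A1 glands at 12 months and above 0 after 1 week in Esr1 glands at both ages, and no value passed the test.

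Between the models the estimate for Oxtr was higher in CYP19A1 glands, while those for Krt14 and Cnn1 were lower. None of them passed the test on TPM over all 48 libraries. In uninduced glands Oxtr, the receptor through which oxytocin triggers contraction, ranged from 7.98 to 27.9 TPM (median 20.7) in 9 Esr1 libraries. In 9 CYP19A1 libraries it ranged from 10.5 to 74.7 TPM (median 32.3). The ranges overlapped, though 5 CYP19A1 libraries exceeded the highest Esr1 library. The CYP19A1 minus Esr1 difference in log2 was 0.88 (95% interval 0.21 to 1.54, means 38.5 and 19.0 TPM, limma adjusted p = 0.143).

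Krt14 in the same uninduced libraries ranged from 6.74 to 59.6 TPM (median 36.0) in the Esr1 model and from 3.09 to 26.8 TPM (median 12.8) in the CYP19A1 model, a log2 difference of -0.79 (-1.51 to -0.06, limma adjusted p = 0.238). Cnn1, which encodes the actin-binding regulator calponin, had means of 25.1 and 12.6 TPM, a log2 difference of -0.80 (-1.47 to -0.13, adjusted p = 0.195). Both genes overlapped between models. The log2 difference was -0.44 (-1.12 to 0.25) for Krt5 and -0.52 (-1.14 to 0.10) for Acta2. It was nearer to 0 for Trp63 (-0.07, -0.49 to 0.35), Mylk (-0.12, -0.64 to 0.40), Tagln (-0.17, -0.72 to 0.37), Krt17 (-0.19, -0.84 to 0.46) and Myh11 (-0.31, -0.84 to 0.22). Of all tested genes 2.95% passed in this comparison, and 3 of the 10 genes (Krt14, Oxtr and Cnn1) had an unadjusted p under 0.05. The direction of Krt17, Trp63, Tagln, Mylk and Myh11 in uninduced glands turned under at least 1 rescaling or set of libraries left out. The luminal list had a median log2 difference of -0.60 in the same comparison, the endothelial list 0.38 and the mural list 0.34, against -0.10 over all genes, and their part was not tested.

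After 6 to 18 months of induction the order was similar. Oxtr had a median of 17.7 TPM in 9 Esr1 libraries (7.40 to 37.6) and 28.7 TPM in 9 CYP19A1 libraries (12.0 to 55.9), a log2 difference of 0.77 (0.11 to 1.44, limma adjusted p = 0.194). Krt5 had a median of 18.8 TPM in Esr1 glands (7.04 to 29.1) and 8.28 TPM in CYP19A1 glands (4.44 to 21.2), a log2 difference of -0.76 (-1.45 to -0.08, adjusted p = 0.223). The libraries of the models overlapped for both genes.

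Krt17, a keratin of basal cells and skin appendages, reached at most 6.88 TPM in long-induced CYP19A1 glands and 17.2 TPM in Esr1 glands, with a log2 difference of -0.68 (-1.33 to -0.03, limma adjusted p = 0.256). The log2 difference was -0.71 for Krt14 and -0.66 for Cnn1, and it was -0.04 for Trp63 and -0.09 for Mylk. Here 4.15% of all genes passed, and 3 of the 10 genes (Krt5, Krt17 and Oxtr) had an unadjusted p under 0.05. Mural genes summed to 77.4 to 214 TPM in these Esr1 libraries and 138 to 257 TPM in the CYP19A1 ones, luminal genes to 178 to 583 TPM and 149 to 525 TPM, and their part was not tested.

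**Figure D3:**
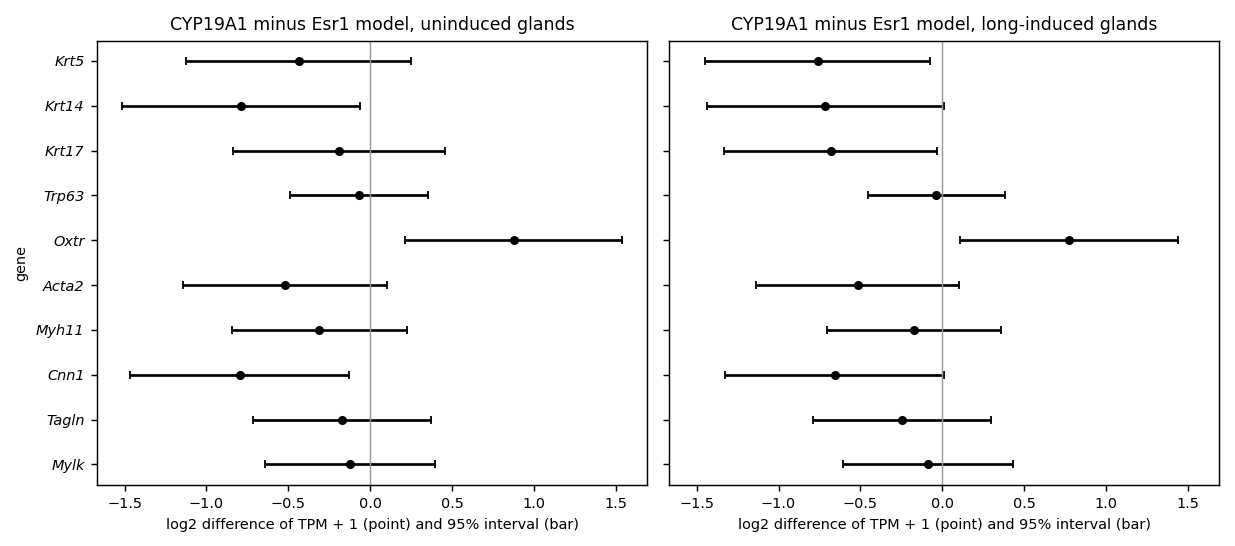
CYP19A1 minus Esr1 difference in log2(TPM + 1) for each gene, in 9 against 9 uninduced libraries (left) and 9 against 9 long-induced libraries (right). Points are estimates and bars 95% intervals, with the line at 0 marking no difference. Oxtr lies to the right of 0 in both panels (0.88 and 0.77), while Krt14 (-0.79 and -0.71) and Cnn1 (-0.80 and -0.66) lie to the left.

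These model differences depended on how libraries were scaled. With TPM rescaled by a median-of-ratios factor per library, which ranged from 0.312 to 1.46, Oxtr passed in uninduced glands (log2 1.02, limma adjusted p = 0.00869, 17.0% of all genes called). With protein-coding genes rescaled to an equal total it also passed (log2 1.09, adjusted p = 0.0106, 8.47% of genes). In long-induced glands 5 genes passed after median-of-ratios rescaling, against a background of 10% of genes. They were Krt5 (-0.91, adjusted p = 0.0157), Krt17 (-0.81, adjusted p = 0.0243), Acta2 (-0.67, adjusted p = 0.0264), Krt14 (-0.86, adjusted p = 0.0342) and Cnn1 (-0.80, adjusted p = 0.0386), all lower in CYP19A1 glands. Oxtr did not pass there (0.63, adjusted p = 0.141). It passed in long-induced glands when only the compared groups were fitted (0.77, adjusted p = 0.0145, 8.82% of genes). None of the 10 passed with protein-coding rescaling in long-induced glands (8.29% of genes) or with only the compared groups in uninduced glands (1.14%).

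Leaving out the 9 libraries with over 10% ribosomal RNA, a choice made after the data were seen, the uninduced difference in Oxtr was 1.54 (limma adjusted p = 0.000529, 12.8% of genes called), while that in Krt14 was -0.46 (adjusted p = 0.497). Without uninduced 18-month Esr1 replicate 3, the library with the most skeletal muscle RNA, Cnn1 passed in uninduced glands (-1.07, adjusted p = 0.0308, 6.24% of genes). Without uninduced 18-month CYP19A1 replicate 1, in which Oxtr was 10.5 TPM against 47.9 and 54.9 TPM in the other 2 libraries, Oxtr passed (1.12, adjusted p = 0.0466, 2.33% of genes).

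A ratio within a library does not depend on scaling. The ratio of Oxtr to Krt14 was 0.444 to 1.58 (median 0.661) in the 24 Esr1 libraries and 0.756 to 11.4 (median 2.31) in the 24 CYP19A1 libraries. The ratio of Cnn1 to Mylk, the kinase that starts contraction, was 0.375 to 1.35 (median 0.837) in Esr1 libraries and 0.213 to 0.775 (median 0.443) in CYP19A1 libraries. Krt14 to Myh11, the smooth muscle myosin heavy chain gene, had medians of 0.704 and 0.392. The ranges of all 3 ratios overlapped, and these pairs were chosen after their values were seen, so no test is given.

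**Figure D4:**
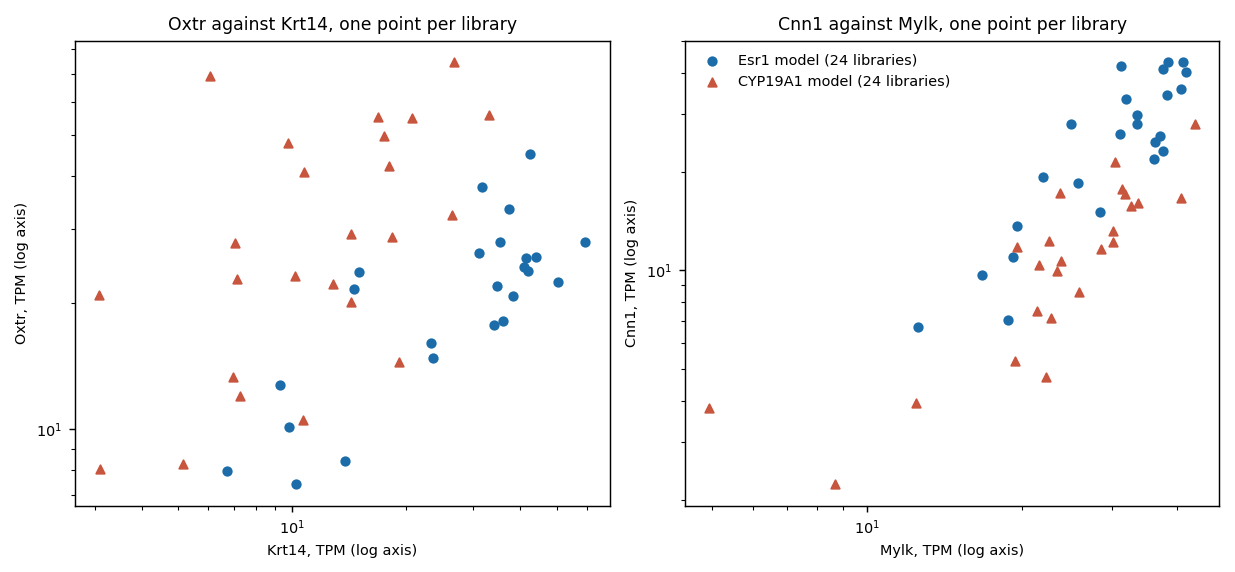
Oxtr against Krt14 (left) and Cnn1 against Mylk (right), in TPM on log axes, with each point a library (blue circles: Esr1 model, 24; red triangles: CYP19A1 model, 24). At a given Krt14 level most CYP19A1 libraries lie above the Esr1 libraries in Oxtr (median ratio 2.31 against 0.661), and at a given Mylk level most lie below in Cnn1 (median ratio 0.443 against 0.837).

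Induction for 1 week at 12 months gave values of opposite sign in the models. In Esr1 glands Krt14 was 9.26, 38.4 and 15 TPM without induction and 35.4, 42.5 and 37.5 TPM after 1 week. Krt5 was 8.10, 17.5 and 8.57 TPM without induction and 17.4, 26.9 and 26.9 TPM after it. For both keratins 1 uninduced library, replicate 2, lay within the range of the induced ones and the other 2 lay below.

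The log2 difference after 1 week in Esr1 glands was 1.08 (-0.18 to 2.34) for Krt14 and 1.05 (-0.14 to 2.24) for Krt5, with limma adjusted p = 0.754 for each. Oxtr was 12.7, 20.7 and 23.7 TPM without induction and 27.9, 45.1 and 33.3 TPM with it, so its groups did not overlap, but its log2 difference of 0.88 (-0.27 to 2.03) did not pass either. All 10 genes were higher, with a median log2 difference of 0.59 against 0.22 over all tested genes. Of all genes 0.0099% passed, and none of the 10 had an unadjusted p under 0.05. After median-of-ratios rescaling, which brought the median of all genes to 0.005, the median of the 10 was 0.31. Luminal genes summed to 721 to 957 TPM in the induced libraries and 313 to 781 TPM in the uninduced ones, and skeletal muscle genes to 383 to 6032 TPM and 2028 to 15756 TPM. Their part in the difference was not tested.

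In CYP19A1 glands at 12 months all 10 genes were lower after 1 week, with a median log2 difference of -1.12 against -0.32 over all genes (-0.71 against 0.02 after median-of-ratios rescaling). Krt17 was 1.89, 13.6 and 14.9 TPM without induction and 1.01, 1.98 and 2.50 TPM with it. Trp63 was 1.51, 11.3 and 10.04 TPM without induction and 2.18, 2.34 and 1.29 TPM with it. In both genes uninduced replicate 1 lay at the level of the induced libraries, and the other 2 uninduced libraries lay far above.

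The log2 difference was -1.67 (-2.79 to -0.55) for Krt17, -1.27 (-1.998 to -0.54) for Trp63, -1.46 (-2.62 to -0.30) for Cnn1 and -1.38 (-2.64 to -0.12) for Krt14, each with limma adjusted p = 0.548. Mylk had the smallest difference, -0.46 (-1.36 to 0.45, adjusted p = 0.582). Oxtr was 20.8, 74.7 and 32.3 TPM without induction and 8.04, 8.26 and 69.1 TPM with it, and 1 induced library thus lay near the highest. In that library, replicate 3, Krt5 was 3.40 TPM and Krt14 6.06 TPM. None of the 10 genes and 0.0% of all genes passed, while 6 of the 10 and 1370 of 20209 genes had an unadjusted p under 0.05.

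This comparison rests on uninduced replicate 1, the library with 67.2% ribosomal RNA. Without it all 10 genes passed, but so did 61.5% of all genes. The values were then -2.47 for Krt17 (limma adjusted p = 0.00131), -2.01 for Trp63 (adjusted p = 0.000579) and -1.33 for Mylk (adjusted p = 0.00477). All 3 induced libraries have a high ribosomal RNA share, and after leaving out such libraries none remains, so induction and the ribosomal RNA share cannot be told apart here. Luminal genes summed to 105 to 218 TPM in the induced libraries and to 90.3, 691 and 620 TPM in the uninduced ones, and mural genes to 63.2 to 194 TPM and 50.4 to 196 TPM. Their part in the difference was not tested.

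At 18 months, where all 6 libraries of the Esr1 comparison and 5 of the 6 of the CYP19A1 comparison had little ribosomal RNA, all 10 genes were higher after 1 week in Esr1 glands (median log2 difference 0.45, 0.14 over all genes, 0.0% of genes called). In CYP19A1 glands 7 of 10 were higher (median 0.14, 0.09 over all genes, 0.0% called), but 5 after median-of-ratios rescaling (median 0.015) and 5 without the library rich in ribosomal RNA (median 0.003). Neither comparison had a gene of the 10 with an unadjusted p under 0.05. In Esr1 glands the median after median-of-ratios rescaling was 0.26 (-0.009 over all genes), with all 10 again higher. Uninduced Esr1 replicate 3 was the lowest library for each gene, for example Acta2 at 54.7 TPM against 251 and 239 TPM. Acta2 in the induced libraries was 188, 210 and 216 TPM. That replicate also had the most skeletal muscle RNA (42322 TPM), and its part in the difference was not tested. Oxtr in CYP19A1 glands was 10.5, 47.9 and 54.9 TPM without induction and 29.2, 13.4 and 14.5 TPM after 1 week, overlapping groups with a log2 difference of -0.75 (-1.89 to 0.40).

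The difference between the models in the 1-week response, averaged over both ages, was negative for all 10 genes (median -1.06 in log2, -0.30 over all genes). It was -1.51 (-2.66 to -0.36) for Oxtr, -1.46 (-2.65 to -0.27) for Krt5 and -0.69 (-1.59 to 0.21) for Mylk, each with limma adjusted p = 0.548. Of all genes 0.0% passed, while 1297 genes, with 6 of the 10, had an unadjusted p under 0.05. Without uninduced 12-month CYP19A1 replicate 1 all 10 passed, with 34.6% of all genes. After median-of-ratios rescaling the median of the 10 was -0.705 (0.0 over all genes). The averaged response includes the 12-month CYP19A1 comparison, in which induction and the ribosomal RNA share cannot be told apart.

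Long induction at 24 months gave median differences near 0 in the CYP19A1 model, with wide intervals. After 6 months 9 of the 10 genes were lower there, with a median log2 difference of -0.09 (-0.005 over all genes), and after 12 months 9 were higher, with a median of 0.17 (0.12 over all genes). The latter split was 6 higher and 4 lower after median-of-ratios (median 0.04) and after protein-coding rescaling (median 0.06). Of all genes 0.0% and 0.0198% passed. Krt14 was 7.04, 16.8 and 12.8 TPM without induction and 17.5, 18.1 and 33.2 TPM after 12 months, groups that did not overlap, with a log2 difference of 0.87 (-0.39 to 2.13, limma adjusted p = 1). The highest of these, replicate 3, is the library with 114 TPM of skin genes, and without it the difference in Krt14 was 0.58. Oxtr was 27.8, 55.4 and 22.2 TPM without induction and 49.8, 42.2 and 55.9 TPM after 12 months.

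In the Esr1 model all 10 genes were higher after 6 months (median log2 difference 0.21, 0.0% of genes called) and after 12 months (median 0.44, 0.00495% of genes called) than in the same 3 uninduced libraries, which both comparisons share. Over all genes the medians were 0.0 and 0.09. Replicate 3 of the 6-month induction had 33.4% ribosomal RNA, and without it the median over the 10 genes was 0.67 (0.15 over all genes), with all 10 again higher and 0.0% of genes called. Acta2, smooth muscle actin, was 50.8, 167 and 171 TPM without induction and 281, 186 and 163 TPM after 12 months, with a log2 difference of 0.84 (-0.23 to 1.92). The low uninduced library, replicate 1, was also the lowest for Krt14 (6.74 against 36.0 and 41.1 TPM) and Tagln (33.9 against 125 and 87.5 TPM). Oxtr was 7.98, 18.1 and 24.3 TPM without induction and 37.6, 23.8 and 21.6 TPM after 6 months, a log2 difference of 0.77 (-0.37 to 1.92). No gene of the 10 had an unadjusted p under 0.05 in these 4 comparisons of long induction. The difference between the models in the long response had 0.0% of genes called and a limma adjusted p of 1 for each of the 10 genes. Its 95% interval for Krt14 ran from -1.49 to 1.59.

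None of the 10 genes passed with age in uninduced glands, and on the TPM scale with all libraries their median differences were small. From 12 to 24 months 3 were higher and 7 lower in Esr1 glands (median log2 difference -0.26, -0.08 over all genes, 0.574% called), and 5 were higher and 5 lower in CYP19A1 glands (median -0.01, 0.22 over all genes, 4.24% called). After median-of-ratios rescaling the latter split was 1 higher and 9 lower (median -0.30, 0.00 over all genes), with none past the test. Only 1 uninduced 12-month CYP19A1 library, replicate 2, had little ribosomal RNA. Against that library alone, with the older libraries rich in ribosomal RNA also left out, the median over the 10 genes was -0.71 at 24 months (-0.29 over all genes). At 18 months it was -0.59 (-0.23 over all genes). All 10 were lower at both ages, and both values rest on this library. From 12 to 18 months the split was 5 and 5 in Esr1 glands (0.0% called) and 7 higher and 3 lower in CYP19A1 glands (0.0099% called), but 1 higher and 9 lower in the latter after rescaling. The 12-month groups are shared by these comparisons.

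Among long-induced glands, where 18 months of induction cannot be told apart from 6 more months of age, several genes were lower at 30 than at 24 months. In Esr1 glands Acta2 was 281, 186 and 163 TPM at 24 months and 102, 75.4 and 76.8 TPM at 30 months, without overlap, with a log2 difference of -1.27 (-2.35 to -0.19, limma adjusted p = 0.282). Tagln, which encodes the actin-binding protein transgelin, was 129, 113 and 102 TPM and then 63.0, 69.1 and 43.3 TPM, also without overlap (-0.98, -1.92 to -0.04, adjusted p = 0.312). Krt17 was 8.05, 12.7 and 13.7 TPM and then 7.96, 4.63 and 2.88 TPM (-1.07, -2.19 to 0.05). Trp63 lay between 4.30 and 7.30 TPM in these 6 libraries (log2 difference 0.04, -0.69 to 0.77). Several marker sums were also lower at 30 months, without overlap. Mural genes summed to 136 to 196 TPM at 24 and 77.4 to 108 TPM at 30 months, endothelial genes to 225 to 296 TPM and 119 to 192 TPM, fibroblast genes to 882 to 1094 TPM and 328 to 486 TPM, and adipocyte genes to 3484 to 5753 TPM and 1134 to 2071 TPM. Luminal sums overlapped (194 to 583 TPM and 178 to 541 TPM). The 30-month replicate 3 had 50.3% ribosomal RNA. The part of these in the difference was not tested.

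Over the 10 genes the median at 30 against 24 months was -0.70 in Esr1 glands, with 9 lower, against -0.36 over all genes. The test called 0.139% of genes, while 2 of the 10 and 3208 of 20209 genes had an unadjusted p under 0.05. After median-of-ratios rescaling the medians of the 10 and of all genes were -0.23 and 0.00. Without the library rich in ribosomal RNA they were -0.56 and -0.21, with 8 lower each time. In CYP19A1 glands 8 were lower (median -0.27, -0.18 over all genes, 0.0% called), but 5 after rescaling. Oxtr was 49.8, 42.2 and 55.9 TPM at 24 months and 23.2, 12.0 and 20.1 TPM at 30 months, without overlap, with a log2 difference of -1.41 (-2.56 to -0.26, limma adjusted p = 0.969). It was the only one of the 10 with an unadjusted p under 0.05 in that comparison, as were 332 of 20209 genes. Krt14 was 17.5, 18.1 and 33.2 TPM and then 10.2, 7.28 and 14.3 TPM, also without overlap (-1.03, -2.29 to 0.23).

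Oxtr had its highest and lowest group means in other groups than the remaining genes. Those genes did not share a single order either. Uninduced 12-month CYP19A1 glands, for example, ranked 3 of 16 for Trp63 and 9 of 16 for Krt14. Krt5 was highest in Esr1 glands induced for 1 week at 12 months (23.7 ± 5.49 TPM, SD, n = 3) and lowest in CYP19A1 glands induced for 1 week at 12 months (3.76 ± 1.02). The same group was lowest for Krt14 (4.77 ± 1.52), Krt17 (1.83 ± 0.756), Trp63 (1.94 ± 0.566), Acta2 (49.9 ± 30.2), Myh11 (13.1 ± 4.60), Cnn1 (3.64 ± 1.28), Tagln (32.7 ± 16.5) and Mylk (14.5 ± 7.04). The 3 libraries of that group had 36.7% to 49.8% ribosomal RNA. Oxtr was highest in CYP19A1 glands induced for 12 months (49.3 ± 6.86 TPM, n = 3) and lowest in Esr1 glands induced for 18 months (10.6 ± 4.75). Above the lowest group, neighbours in the order differed by no more than the larger of their SDs, except 1 pair each for Myh11 (44.6 ± 2.37 and 54.3 ± 9.09 TPM) and Tagln (69.6 ± 7.498 and 77.5 ± 7.34 TPM). For Krt14 the top 3 groups, at 40.95 ± 9.61, 38.5 ± 3.67 and 37.8 ± 25.5 TPM, were all from the Esr1 model.

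The 10 genes varied together from library to library, with Oxtr the least tied to the rest when all 48 libraries were pooled. Over 48 libraries the 36 pairs without Oxtr had Pearson correlations of log2(TPM + 1) from 0.691 to 0.951 (median 0.867) and Spearman correlations from 0.626 to 0.945. The 9 pairs with Oxtr had Pearson correlations from 0.252 to 0.464 and Spearman correlations from 0.224 to 0.444. Permutation tests shuffled all 48 libraries without regard to group or model, so differences between groups and models count in their p-values. Adjusted over the 45 pairs, the tests put 43 pairs past 0.05. The exceptions were Oxtr with Cnn1 (r = 0.252, permutation p = 0.082, adjusted p = 0.082) and Oxtr with Trp63 (r = 0.277, permutation p = 0.0564, adjusted p = 0.0577). The share of all gene pairs that would pass was not computed, here or after rescaling. Such counts therefore do not set the 10 genes apart from other genes.

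Myh11 with Mylk was the closest pair (r = 0.951, rho = 0.945, permutation p = 1e-05, the smallest the 100000 permutations can give, adjusted p = 1.25e-05), and Acta2 with Tagln (r = 0.946) and Krt5 with Krt14 (r = 0.926) followed a similar course. Without the 2 libraries farthest from the median the r of these 3 pairs was 0.939, 0.925 and 0.908. On deviations from the group means, Myh11 with Mylk had r = 0.969 and the pairs with Oxtr 0.317 to 0.673. Within the 12- and 18-month libraries the pairs without Oxtr lay between 0.802 and 0.98, and within the 24- and 30-month libraries between 0.389 and 0.959.

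The correlations were lower after median-of-ratios rescaling, when 33 of 45 pairs passed. The 28 pairs without Oxtr and Trp63 had r from 0.489 to 0.91, the 8 pairs of Trp63 with these genes 0.233 to 0.474, and the 9 pairs with Oxtr -0.289 to 0.068, of which 0 passed by the permutation test. Myh11 with Cnn1 was then the closest pair (r = 0.91), and Krt5 with Krt14 had r = 0.864. The pooled values for Oxtr take in both models, and the part of differences between the models in them was not tested. In the Esr1 libraries Oxtr was not the least tied. Its pairs there had a median r of 0.695 on the TPM scale, against 0.658 for the 8 pairs of Trp63 without Oxtr. After rescaling these medians were 0.375 and 0.12. In the CYP19A1 libraries they were 0.506 and 0.808 on the TPM scale, and 0.1 and 0.521 after rescaling. Krt14 with Oxtr had r = 0.365 over all 48 libraries but 0.785 in the 24 Esr1 and 0.572 in the 24 CYP19A1 libraries on the TPM scale, and 0.596 and 0.249 after rescaling (-0.018 pooled).

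**Figure D5:**
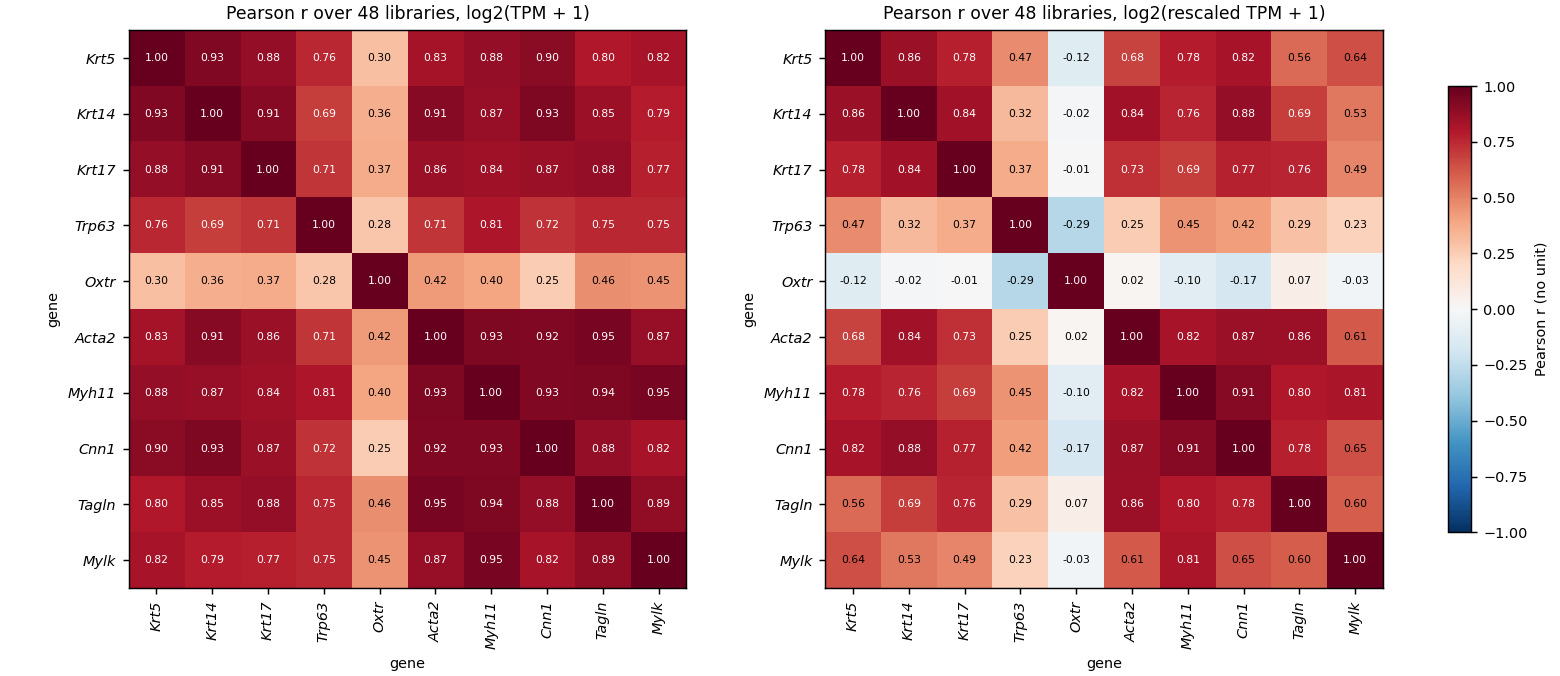
Pearson correlations between the 10 genes over 48 libraries, on log2(TPM + 1) as deposited (left) and after median-of-ratios rescaling (right), with r printed in each cell. The line of Oxtr is pale on the left (0.25 to 0.46) and near 0 or below on the right (-0.29 to 0.07), while the keratin and contractile genes stay correlated in both.

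The contractile genes are also made by vessel walls, and the keratins by skin, so the genes were set beside summed marker levels, on the rescaled values and over 48 libraries, with permutation p adjusted over 70 pairs. Krt14 correlated with the luminal sum (r = 0.742, rho = 0.742, adjusted p = 0.00014) and inversely with the endothelial (r = -0.646, rho = -0.627, adjusted p = 0.00014) and mural sums (r = -0.547, rho = -0.486, adjusted p = 0.000262). Without the 2 farthest libraries these were 0.710, -0.574 and -0.466. Within the Esr1 and CYP19A1 libraries Krt14 had r = 0.695 and 0.51 with the luminal and -0.376 and -0.287 with the mural sum. Cnn1 had r of 0.672, -0.624 and -0.535 with the same sums, and Acta2 0.563, -0.448 and -0.352. Within the CYP19A1 libraries the luminal values were 0.266 for Cnn1 and 0.12 for Acta2, against 0.713 and 0.501 within the Esr1 libraries. Mylk had r = 0.2 with the luminal and -0.04 with the mural sum (permutation adjusted p = 0.253 and 0.847). Oxtr correlated with the fibroblast (r = 0.438, adjusted p = 0.00818) and mural sums (r = 0.379, adjusted p = 0.0247), with rho of 0.381 and 0.342, and had r = -0.089 with the luminal sum. Within the Esr1 and CYP19A1 libraries its r was 0.481 and 0.352 with the fibroblast sum, -0.148 and 0.518 with the mural sum, and 0.595 and -0.072 with the luminal sum. On the TPM scale r with the luminal sum ran from 0.302 (Oxtr) to 0.865 (Krt14), past 0.05 for all 10 genes. With the mural sum it ran from 0.262 (Cnn1) to 0.649 (Mylk), and Krt5, Krt14 and Cnn1 did not pass. With the endothelial sum r on the TPM scale was 0.174 for Krt14, 0.163 for Cnn1 and 0.368 for Acta2 (permutation adjusted p = 0.015 for Acta2). For Krt14, Cnn1 and Acta2 the sign with the mural and endothelial sums thus turned with the scaling. With the skin sum r ran from 0.322 (Trp63) to 0.572 (Krt14) on the TPM scale, past 0.05 for all 10 genes. After rescaling it was 0.306 for Krt14 (rho = 0.27, permutation adjusted p = 0.0607) and 0.258 for Krt5 (adjusted p = 0.125), and none of the 10 passed. Within the rescaled values Krt5 with the luminal sum was 0.55 in the Esr1 and 0.629 in the CYP19A1 model. The share of all genes that would pass with these sums was not computed. Here too the permutations ignored group and model.

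Genes around the same functions were read from 3 lists of 20 genes, of which 18, 18 and 19 were tested. Of the adhesion and basement membrane list (integrins, laminins, desmosomal genes and basal regulators) 1 of 18 rose in any comparison within a model, beside 4.24% of all genes in that comparison. That was Plec, the plectin gene, in uninduced CYP19A1 glands at 24 against 12 months (log2 1.43, SE 0.41, limma adjusted p = 0.0365). Lgr5, a stem cell receptor gene, was higher in uninduced CYP19A1 than Esr1 glands (0.67, limma adjusted p = 0.0406), 1 of 18 beside 2.95% of all genes. Both shares are near that of all genes.

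Of the further contractile genes, 6 of 18 were higher in uninduced CYP19A1 glands at 24 than at 12 months. Of all genes 4.24% passed there, and 98.5% of those were higher. Among the 6 were Des (desmin, log2 3.78, limma adjusted p = 0.00607), Tpm2 (tropomyosin, 3.39, adjusted p = 0.0107), Hspb6 (3.21), Tpm1 (3.04) and Synpo2 (1.54). None of the 5 contractile genes followed here passed in that comparison, and Acta2, for example, had a log2 difference of 0.15. Des, Tpm1, Tpm2 and Hspb6 are also genes of skeletal muscle, whose markers summed to 550 to 4602 TPM at 12 months and 17088 to 26555 TPM at 24 months. Their part in the result was not tested. The total of called genes in that comparison, 857, was 61 after median-of-ratios rescaling. At 12 months uninduced CYP19A1 replicates 1 and 3 had 67.2% and 22.2% ribosomal RNA, and the part of this was not tested. Synpo2 was also higher at 24 than at 12 months in uninduced Esr1 glands (1.71, limma adjusted p = 0.00719), where 0.574% of all genes passed.

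Of the oxytocin signalling list 1 of 19 passed in each of the model comparisons, beside 2.95% of all genes uninduced and 4.15% long induced, a share near that of all genes. Plcb1, a phospholipase C that acts below Gq-coupled receptors, was higher in CYP19A1 than Esr1 glands, without induction (log2 0.71, limma adjusted p = 0.00863) and after long induction (0.85, adjusted p = 0.000852). The median over the list was -0.08 without induction and 0.12 after long induction, against -0.10 and 0.12 over all genes.

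The genes most like 3 of the 10 were sought among 11343 other protein-coding genes by Pearson correlation over the 48 libraries. For Krt14 the closest included Perp (r = 0.951), a gene of desmosomes and of the p63 programme, Rps9 (0.927), Rps26 (0.925) and H3f3b (0.921). For Myh11 they were Clstn1 (0.939), C87436 (0.92), Zfp263 (0.92), Ldb1 (0.919) and Chfr (0.919). After median-of-ratios rescaling Perp was still first for Krt14 (0.905), while Myh11 was closest to Actg2 (0.829), another smooth muscle actin gene, Il17b (0.789) and Perp (0.781). Oxtr was closest to Mgl2 (0.792) and Fcrls (0.786), genes of myeloid cells, with Rab32 (0.775) and Sc5d (0.77) also among its closest, and Mgl2 (0.706) and Fcrls (0.685) remained the first 2 after rescaling.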

How the data were processed

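RNA was measured in 48 thoracic mammary gland libraries. Per the labels' protocols, ribosomal RNA was depleted and stranded libraries were read on a NextSeq 550 as single 75 bp ends, with at least 50 M reads stated. The authors deposited TPM per gene. RSEM 1.3.1 and STAR 2.7.9a, the build mm10, and for read checks and trimming FastQC 0.11.9 and Trim Galore 0.6.5, are named in the submitters' processing notes. The annotation release is not given in the sources used here, and 55094 identifiers matched GENCODE M21 with their version. TPM keep no depth, so no counting interval is given. Shared reads are divided by estimation, which can blur Krt14 and Krt17, or Acta2 and other actins.

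Group means of log2(TPM + 1) were estimated in 1 fit over all 48 libraries with limma 3.58.1 in R 4.3.3 (trend, two-sided), on the genes that reached 1 TPM in 3 or more libraries. Adjustment was by Benjamini-Hochberg within each comparison, with a threshold of 0.05. A difference is on the log2(TPM + 1) scale, which understates the change of scarce genes. Correlations used scipy 1.17.1 with 100000 permutations. The script was tested on simulated data. No pair of libraries was near-identical (highest correlation 0.9752).

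The 10 genes and all lists were chosen with earlier results of these data known. Named were the 10 genes, the 5 protein-coding genes most like Krt14, Myh11 and Oxtr, and up to 4 genes per list past the test, of which some are not reported here. Alternatives were a pseudocount of 0.1, no filter, both rescalings, only the compared groups, the replicate block, each library left out and, added after seeing the data, no libraries with over 10% ribosomal RNA. Same-numbered libraries did not deviate together (correlations -0.443 to 0.358, every pair above 0.1 in 1 of 14 comparisons), so the numbers were not treated as pairs.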

Additional observations from a re-analysis of the deposited data

How the results depend on the processing

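Of 286 counts of the 10 genes past the threshold under an alternative, 277 were 0, as reported. The replicate block gave 0 in each of the 18 comparisons (smallest limma adjusted p = 0.141). Leaving out each library in turn gave 0 to 10 for 1 week of CYP19A1 induction at 12 months and for the difference between models in the 1-week response. For the models in uninduced glands it gave 0 to 1. There median-of-ratios rescaling, protein-coding rescaling and leaving out libraries rich in ribosomal RNA each gave 1. In long-induced glands median-of-ratios rescaling gave 5 and fitting only the compared groups 1 (Oxtr, limma adjusted p = 0.0145, 8.82% of genes). The cause was not tested. Leaving out libraries rich in ribosomal RNA gave no value for the 1-week comparison at 12 months in CYP19A1 glands, nor for the difference in the 1-week response, since no library of the induced group remained. Signs were followed for genes picked for each comparison, not for all 10 genes in all 18 comparisons. Of these 767 values under an alternative, 21 changed sign. The 21 therefore do not count every change of direction among the 10 genes. From 12 to 18 months in uninduced CYP19A1 glands, for example, 7 of the 10 were higher on the TPM scale but 1 after median-of-ratios rescaling. In uninduced glands Trp63 was 0.0374 and Mylk 0.0106 after median-of-ratios rescaling. After protein-coding rescaling Trp63 was 0.10, Tagln 0.0475 and Mylk 0.0825. Without libraries rich in ribosomal RNA Krt17 was 0.0042, Trp63 0.20, Myh11 0.0416, Tagln 0.16 and Mylk 0.31. With each library left out the ranges were -0.40 to 0.0783 for Krt17, -0.21 to 0.18 for Trp63, -0.36 to 0.0485 for Tagln and -0.30 to 0.17 for Mylk. They were -0.15 to 0.0538 for Trp63 in long-induced glands and -1.33 to 0.0833 for Mylk after 1 week in CYP19A1 glands. Counts over all genes also moved. For the models uninduced, 596 genes passed (33.2% of them higher), against 3342 (46.1%) after median-of-ratios and 1698 (67.8%) after protein-coding rescaling, 2561 without libraries rich in ribosomal RNA and 214 with only the compared groups. Long induced, 839 passed (71.6% higher), against 1967 (48.3%) and 1662 after these rescalings and 1594 with only the compared groups. From 12 to 24 months in CYP19A1 glands, 857 passed (98.5% higher), against 61 (57.4%) after median-of-ratios rescaling, 7 without libraries rich in ribosomal RNA (which leaves 1 library at 12 months, assumed to vary like the other groups), 397 with only the compared groups and 1414 with no filter. In Esr1 glands 116 passed, against 369 and 193 after the rescalings, 264 without libraries rich in ribosomal RNA and 316 with no filter. At 30 against 24 months in Esr1 glands 28 passed (7.14% higher), against 22 (22.7%) after median-of-ratios rescaling, 85 without libraries rich in ribosomal RNA, 184 with only the compared groups and 46 with no filter. With no filter, counts of 0, 2 and 2 became 224 for 1 week in CYP19A1 glands at 12 months, 109 for the same in Esr1 glands and 136 for 18 against 12 months in CYP19A1 glands. Depth is unknown, so it sets no stated limit.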
